A study of Mus musculus with 12 samples.

Results

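The 10 apolipoprotein genes described here were Apoa1, Apoa2, Apoa4, Apoa5, Apob, Apoc1, Apoc3, Apoe, Apoh and Apom. They were chosen by symbol, and each matched 1 of the 11289 genes in the deposited table, so that all 10 were measured in every mouse. Liver RNA was sequenced from 12 C57BL/6J mice, aged 8 to 10 weeks by the labels and male by the study's methods, with 4 mice per group and no genetic change named in any group. The control mice carry no injection in their labels. The Con A + PBS mice received concanavalin A (Con A), a lectin from jack beans that stimulates T cells and brings on acute hepatitis, at 15 mg/kg by tail vein, followed after 30 min by intravenous PBS. The Con A + hWJ-MSCs mice received the same Con A and, after the same 30 min, 2000000 human mesenchymal stem cells from the Wharton's jelly of umbilical cord in 200 µL of PBS. All livers were taken at 24 h. The labels and the methods differ on the number of cells and on the age of the mice, and the values above are those of the labels. The cells were human and the recipients were mice with their own immune system, and no group received the cells without Con A, so an effect of the cells on apolipoproteins in an uninjured liver was not measured.

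Apolipoproteins are the protein part of the lipoprotein particles that carry lipids in plasma, and the liver secretes most of them. ApoB is the structural protein of VLDL and LDL, ApoA-I and ApoA-II are those of HDL, and the smaller exchangeable proteins move between particles. Among the latter, ApoC-II activates lipoprotein lipase, ApoC-III and ApoC-I slow the clearance of triglyceride-rich particles, ApoA-V promotes it, and ApoE is a ligand of hepatic lipoprotein receptors. In the acute phase response the liver raises serum amyloid A proteins, which travel on HDL.

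The deposited values are whole-number scores that had been normalized between mice, not read counts, and their form bears on every value below. The sorted scores of the 12 mice were identical down to position 8024, 10 genes shared the largest value of 341028 in each mouse, and the scores fell into 10 series of values in which each step was the same in all mice. A gene's score was therefore fixed by its place among the genes of its own series. The steps near the top were wide, from 341028 to about 147628, a factor of 2.31, then by factors of 2.03, 1.25 and 1.31. A lower score of a gene and the rise of other genes past it on the same series cannot be told apart from these values. Apoe, Apoa1, Apoc3, Apoa4 and Apoa5 shared a series, as did Apoa2, Apoc1 and Apom, and Apob and Apoh. Apoe and Apoa2 were the members that reached 341028 in at least 1 mouse, among 25 such genes. Sequencing depth is unknown.

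Scores were compared as log2(score + 1), and a gene is said to have risen or fallen where limma's Benjamini-Hochberg adjusted p over all 11289 genes was below 0.05 and the fold change was above 1.5. After Con A and PBS, 7 of the 10 apolipoproteins passed this test against control, 1 upward and 6 downward, where 38.8% of all genes passed it, 19.5% upward and 19.2% downward. The median log2 fold change was -1.02 over the 10 members and 0.05 over all genes. Steps are wider near the top. On the series of Apoe the factor was 2.31 from step 1 to 2 and 1.03 from step 29 to 30. Most members lie near the top, so the same shift in place changes their scores more. Shares and medians of members and of all genes, here and below, therefore do not compare like with like. Apoa4 rose, while Apoa1, Apoa2, Apoe, Apoc3, Apoc1 and Apoh fell, and Apoa5, Apob and Apom did not pass. The scores of the groups did not overlap for 8 of the 10, where this held for 50.4% of all genes. These are bulk livers, so fewer hepatocytes and less RNA per hepatocyte cannot be told apart.

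**Figure D1:**
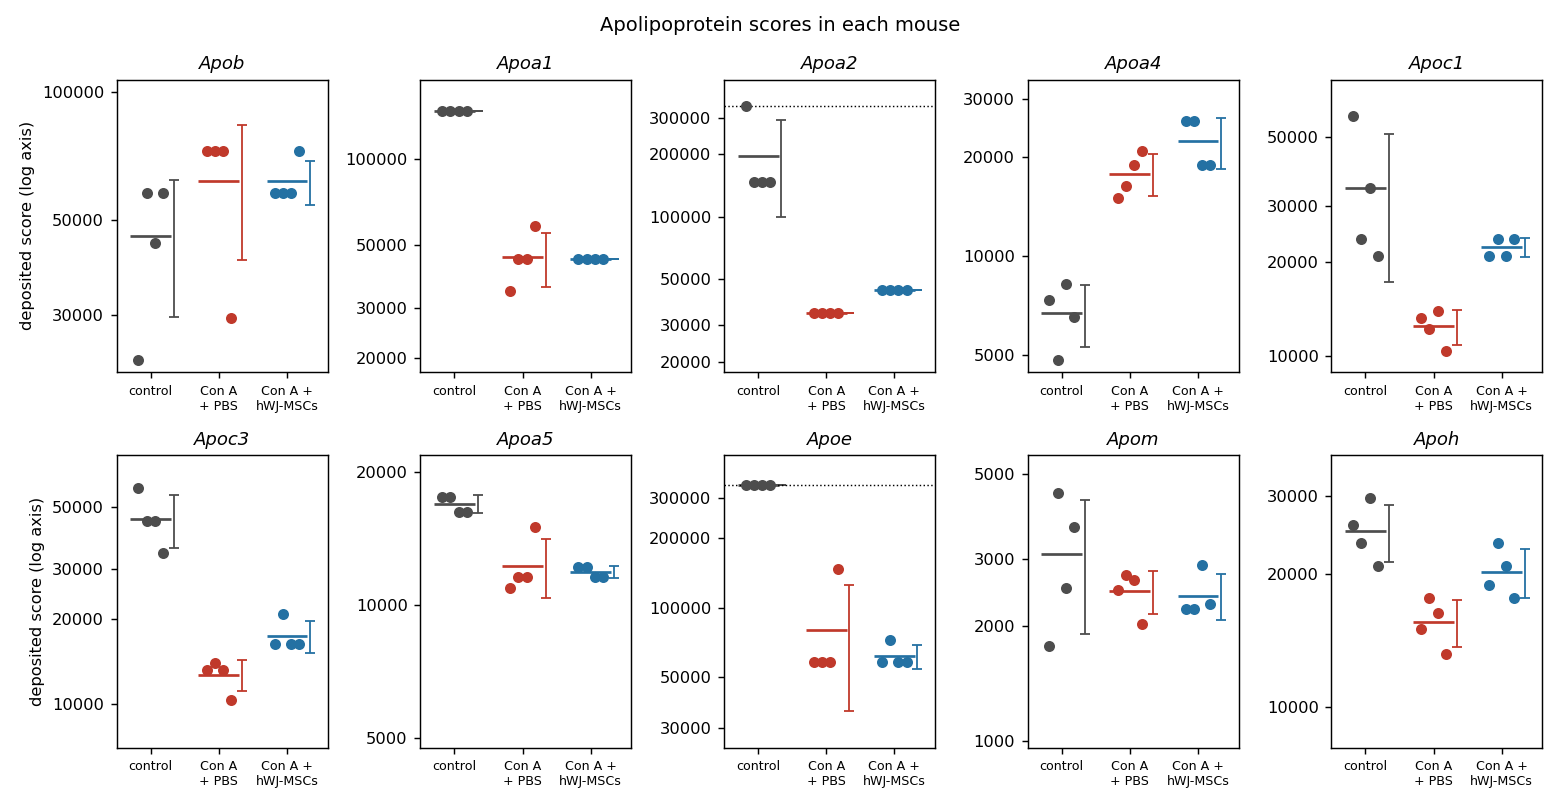
Deposited scores of the 10 apolipoproteins in each mouse, on a log axis that differs between panels, with the group mean as a horizontal line, the SD as a bar beside it (n = 4) and the largest value of the table, 341028, as a dotted line where a member reached it. Apoa4 sits higher in all 8 mice given Con A than in the 4 control mice, and Apoe, Apoa1, Apoa2 and Apoc3 sit lower in all 8.

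Of the HDL proteins, Apoa1 encodes ApoA-I, the main structural protein of the particle and the activator of LCAT. Its score was 147628 in all 4 control mice, against 34316, 44442, 44442 and 58038 in Con A + PBS mice 1 to 4 and 44442 in all 4 Con A + hWJ-MSCs mice. Every mouse given Con A lay below every control mouse, and the 4 mice that also received cells had the middle score of those given PBS. The log2 fold change after Con A was -1.73 (SE 0.16; limma, Benjamini-Hochberg adjusted p = 3.89e-06). Apoa1 was on step 2 of its series in every control mouse and on steps 4 to 6 after Con A, with Lcn2 and Saa2 newly above it in all 4 of these mice.

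Apoa2 encodes ApoA-II, the second most abundant protein of HDL. It scored 341028 in control mouse 1 and 147684 in the other 3, 34334 in all 4 Con A + PBS mice, and 44484 in all 4 Con A + hWJ-MSCs mice. The 3 groups did not overlap, and the mice given cells lay 1 step above those given PBS. The log2 fold change of Apoa2 in Con A + PBS livers was -2.41 (SE 0.24; limma, Benjamini-Hochberg adjusted p = 6.95e-06). Without control mouse 1 it was -2.10. Haptoglobin (Hp), Itih4 and vitronectin (Vtn) stood above it in all 4 Con A + PBS mice and in no control mouse. Hp and Itih4 themselves rose, and Vtn did not pass the test.

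Apom encodes ApoM, a lipocalin that binds sphingosine 1-phosphate on HDL, and had the lowest scores of the 10. The control mice gave 1775, 4454, 2522 and 3639, the Con A + PBS mice 2494, 2724, 2645 and 2021, and those with hWJ-MSCs 2217, 2217, 2898 and 2284. The control mice spanned the other groups. The log2 fold change of -0.25 after Con A (95% interval -0.76 to 0.26) did not pass the test (limma, Benjamini-Hochberg adjusted p = 0.386).

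Apoe, which is made by hepatocytes and also by macrophages, had the largest score of the table, 341028, in all 4 control mice. After Con A and PBS it scored 58038 in mice 1 to 3 and 147628 in mouse 4, and after Con A and cells it scored 72682 in mouse 2 and 58038 in the others. No mouse given Con A reached the control score, and Con A + PBS mouse 4 stood above the 7 others. Its log2 fold change after Con A was -2.22 (SE 0.27; limma, Benjamini-Hochberg adjusted p = 3.38e-05). How far Apoe stood above the next gene in control mice cannot be read from a score at the largest value.

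A gene's step is set by how many genes of its series stand above it. The places given here thus describe the fall of Apoe, and its cause was not tested. Apoe was on step 1 in the control mice and on step 4 in Con A + PBS mice 1 to 3, in which Saa2, Saa1 and Lcn2 held steps 1, 2 and 3. In Con A + PBS mouse 4, Lcn2 held step 1, Apoe step 2, Saa2 step 3 and Saa1 step 5. In the control mice the scores of Saa2 lay between 678 and 2304, of Saa1 between 851 and 3038, and of Lcn2, which encodes the siderophore-binding protein lipocalin 2, between 1020 and 4920. Apoe kept a higher score than Apoa1, Apoc3, Apoa4 and Apoa5 in all 12 mice.

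**Figure D2:**
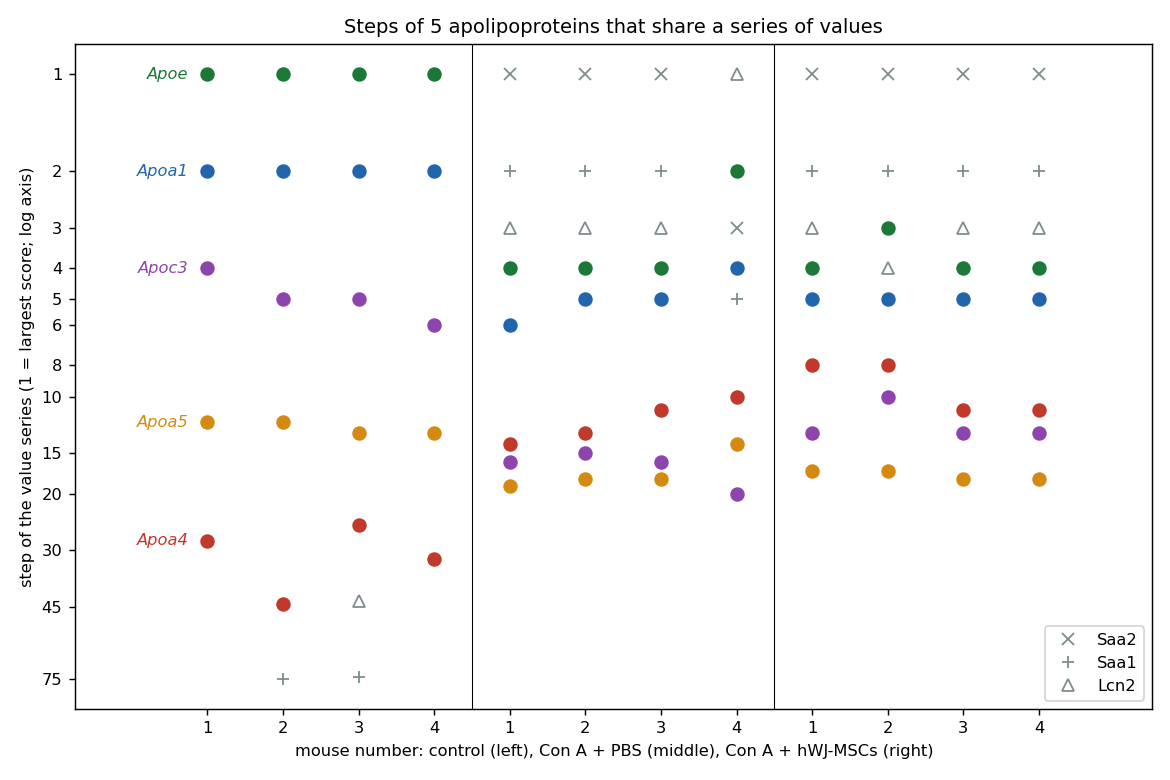
Step of Apoe, Apoa1, Apoc3, Apoa5 and Apoa4 on the series of values that they share, in each of the 12 mice, with step 1 the largest score and a log axis that runs downward. Grey symbols are Saa2, Saa1 and Lcn2, which are drawn only where they lie within the first 80 steps. Apoe is on step 1 in the control mice and on steps 2 to 4 in the mice given Con A, and Apoa4 passes Apoc3 and Apoa5 in all 8 of them.

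Of the C apolipoproteins, Apoc3 encodes ApoC-III, an inhibitor of lipoprotein lipase and of particle uptake. The control mice scored 58038, 44442, 44442 and 34316, the Con A + PBS mice 13184, 13920, 13184 and 10329, and those with hWJ-MSCs 16300, 20838, 16300 and 16300. The 3 groups did not overlap, with the mice given cells in between. Apoc3 fell after Con A by 1.82 on the log2 scale (SE 0.17; limma, Benjamini-Hochberg adjusted p = 4.45e-06). It went from steps 4 to 6 to steps 15 to 20, and 10 genes stood above it in all 4 Con A + PBS mice and in no control mouse, of which 8 had risen and 2, Gapdh and H2-K1, had not passed the test.

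Apoc1, whose small product hinders the uptake of particles by receptors, varied most among the control mice. They scored 58067, 23572, 34334 and 20852, against 13195, 12202, 13926 and 10336 in the Con A + PBS mice. The Con A + hWJ-MSCs mice scored 20852, 23572, 20852 and 23572, equal to the scores of control mice 2 and 4 and above all 4 mice given PBS. Apoc1 fell after Con A by 1.35 on the log2 scale (SE 0.26; limma, Benjamini-Hochberg adjusted p = 8.82e-04). Cfb, Ifitm3, Lrp1 and Ubb, 3 of which had risen while Lrp1 had not passed the test, were newly above it in all 4 Con A + PBS mice.

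Apoa4 was the one member that rose. It encodes ApoA-IV, an exchangeable protein of HDL and triglyceride-rich particles that is made in mouse liver and small intestine. The control mice scored 7330, 4824, 8219 and 6516, the Con A + PBS mice 15057, 16300, 18894 and 20838, and those with hWJ-MSCs 25781, 25781, 18894 and 18894. All 8 mice given Con A lay above all 4 control mice. The log2 fold change was 1.42 after Con A and PBS (SE 0.19; limma, Benjamini-Hochberg adjusted p = 5.58e-05) and 1.74 after Con A and cells (SE 0.19; limma, Benjamini-Hochberg adjusted p = 2.57e-05), both against control. Although Lcn2, Saa1 and Saa2 passed it, Apoa4 moved up its series from steps 25 to 44 to steps 10 to 14, and 14 genes that stood above it in all 4 control mice, among them Apoc3, Apoa5, Fasn, Eef2 and Gpx1, did so in no Con A + PBS mouse. Of these 14 genes, 12 had themselves fallen and 2 had not passed the test, so the rise of Apoa4 and their fall cannot be told apart either.

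Apoa5 encodes ApoA-V, a scarce plasma protein that promotes lipolysis by lipoprotein lipase. It scored 17632, 17632, 16300 and 16300 in the control mice, 10925, 11566, 11566 and 15057 in the Con A + PBS mice, and 12196, 12196, 11566 and 11566 in the Con A + hWJ-MSCs mice. Every mouse given Con A lay below every control mouse. The log2 fold change after Con A of -0.48 (SE 0.12; limma, Benjamini-Hochberg adjusted p = 0.00482) had a small p but was under the fold limit, so Apoa5 is not counted among the genes that fell. Of the 6 genes newly above it in all 4 Con A + PBS mice, Apoa4 was one, and all 6 had risen.

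Apob, whose product is the one structural protein of each VLDL particle, did not pass the test. It scored 23500, 57938, 44292 and 57938 in the control mice, 72623 in Con A + PBS mice 1 to 3 and 29590 in mouse 4, and 57938 in Con A + hWJ-MSCs mice 1 to 3 and 72623 in mouse 4. The Con A + PBS and control groups overlapped through Con A + PBS mouse 4, which lay below 3 of the control mice, and control mouse 1 was the lowest of all 12. The log2 fold change after Con A was 0.42 (95% interval -0.30 to 1.15; limma, Benjamini-Hochberg adjusted p = 0.296), and it was 0.75, past the test, when Con A + PBS mouse 4 was left out (limma, Benjamini-Hochberg adjusted p = 0.0352). The table lists for Apob a transcript of 1118 bases, shorter than the main Apob message.

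Apoh encodes beta-2-glycoprotein I, a phospholipid-binding plasma protein that is only loosely tied to lipoproteins. It scored 25747, 23500, 29590 and 20792 in the control mice, 15018, 17606, 16262 and 13142 after Con A and PBS, and 18862, 23500, 20792 and 17606 after Con A and cells. The Con A + PBS mice lay below all control mice, and the mice given cells overlapped both groups. Apoh fell after Con A by 0.68 on the log2 scale (SE 0.15; limma, Benjamini-Hochberg adjusted p = 0.00220), the smallest of the falls that passed.

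For 8 members the score was divided by the length of the listed transcript, as score per kb (Apob and Apoh were left out for their short listed transcripts). In control livers the mean score per kb ran from Apoa2 (378417 ± 186625, SD, n = 4) through Apoe (242207), Apoa1 (142636), Apoc1 (79181), Apoc3 (63906), Apoa5 (6746) and Apoa4 (3704) to Apom (3058 ± 1170, SD, n = 4). Apoc1 and Apoc3 overlapped between mice, as did Apoa4 and Apom. Apoe in all 4 control mice and Apoa2 in 1 were at the largest value, so the order of these 2 genes cannot be read. The genes compared lie on 2 series of nearly equal values, and a score was set by the place within its series. The order of genes of different series, such as Apoc1 and Apoc3, is therefore not an order of level. In Con A + PBS livers, Apoa4 (9792 ± 1430, SD, n = 4) stood above Apoa5 (4882 ± 746, SD, n = 4) in score per kb without overlap, the opposite of their order in control livers. Apoc3 (17848 ± 2241, SD, n = 4) stood above Apoa4 in score per kb, although its deposited score was lower. In the livers with cells, Apoc1, Apoe and Apoa1 overlapped in turn, at 51417, 43820 and 42939 per kb.

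In the comparison of Con A + hWJ-MSCs with Con A + PBS, which shares the Con A + PBS mice with the one above, 1 of the 10 members passed the test, where 8.58% of all genes did, 4.2% upward and 4.38% downward. This was Apoc1, with a log2 fold change of 0.85 (SE 0.26; limma, Benjamini-Hochberg adjusted p = 0.0499). It passed Lrp1, Pck1 and Ubb, which were above it in all 4 Con A + PBS mice and in no mouse given cells. The call rested on the threshold, since leaving out 1 mouse at a time kept it in 2 of 12 fits, with adjusted p from 0.0163 to 0.121 (limma, Benjamini-Hochberg).

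The groups did not overlap for 3 members, Apoa2, Apoc1 and Apoc3, where this held for 23.5% of all genes, and all 3 were higher with cells. Groups of 4 mice without overlap always give p = 0.0286 in a two-sided exact permutation test, the smallest value possible. This p therefore restates the separation of these 3 members and adds no support. The log2 fold changes of Apoc3, 0.46 (limma, Benjamini-Hochberg adjusted p = 0.0807), Apoh, 0.38 (limma, Benjamini-Hochberg adjusted p = 0.0971), and Apoa2, 0.37 (limma, Benjamini-Hochberg adjusted p = 0.283), did not pass. For Apoa1 the value was -0.003 with a 95% interval from -0.35 to 0.34, and for Apoe it was -0.26 with a 95% interval from -0.84 to 0.33. Apoa4 (0.32), Apob (0.08), Apoa5 (-0.04) and Apom (-0.04) did not pass either. The median over the 10 members was 0.20, and that over all genes was 0.00.

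Against control, the Con A + hWJ-MSCs livers still differed for 5 of the 10 members, where 26.7% of all genes passed, 13.6% upward and 13.1% downward. Apoa4 was higher, and Apoe (log2 fold change -2.47, SE 0.27), Apoa2 (-2.03, SE 0.24), Apoa1 (-1.73, SE 0.16) and Apoc3 (-1.36, SE 0.17) were lower, with limma, Benjamini-Hochberg adjusted p from 8.08e-06 to 7.90e-05 over these 5. Apoc1 (-0.51) and Apoh (-0.30), which had fallen in the mice given PBS, did not pass in this comparison. When control mouse 4 was left out, Apoc1 did pass (-0.70; limma, Benjamini-Hochberg adjusted p = 0.0467). The groups did not overlap for 6 members, where this held for 37.9% of all genes. The control mice are shared with the first comparison, so the falls in both are not independent.

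**Figure D3:**
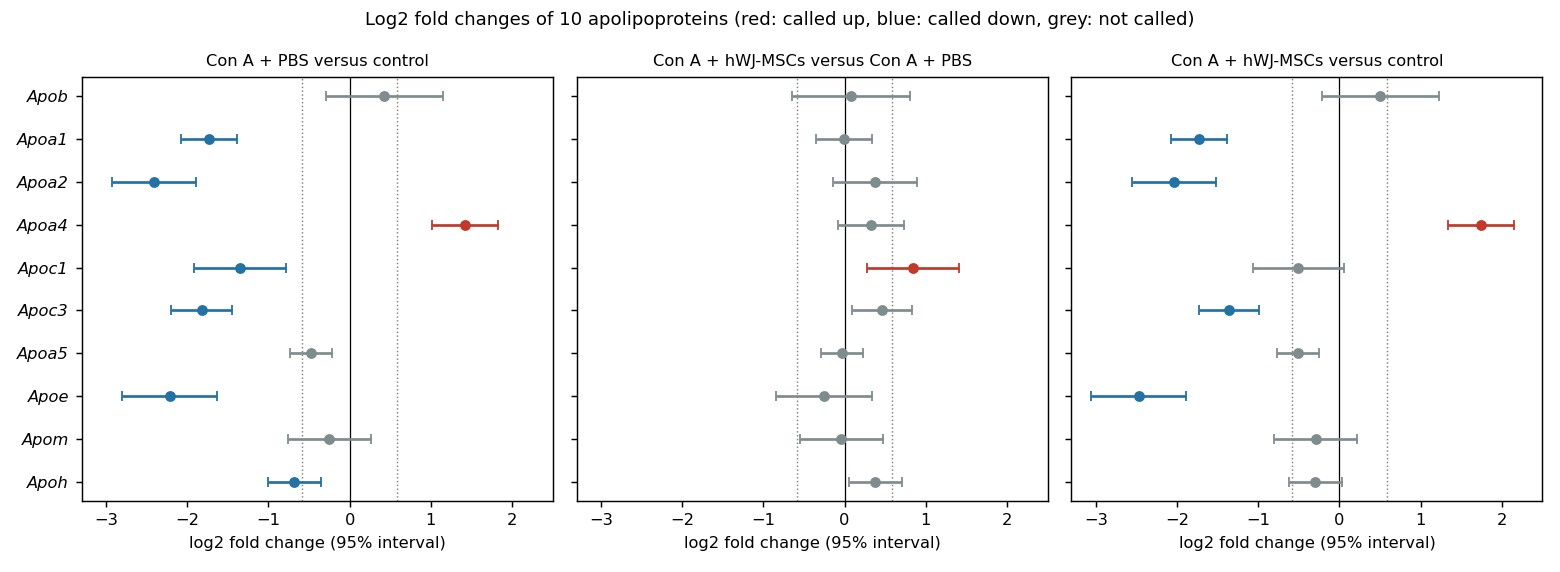
Log2 fold changes of the 10 apolipoproteins in each comparison, with 95% intervals from limma, a solid line at 0 and dotted lines at the fold limit of 1.5. Red and blue points passed the test upward and downward and grey points did not, which leaves 7, 1 and 5 coloured points from left to right.

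Of the 10 members, 6 lie in 2 gene clusters that are known in mammals. On chromosome 9 of mm10, Apoa1 (chr9:46228580-46230466, + strand), Apoc3 (chr9:46232933-46235260, - strand), Apoa4 (chr9:46240696-46243459, + strand) and Apoa5 (chr9:46268633-46271919, + strand) lie within 43.3 kb. In this cluster Apoa1 and Apoc3 fell after Con A and Apoa4, 5436 bp from Apoc3, rose. The genes that flank the cluster in the table, Sik3 (log2 fold change -0.37) and Zpr1 (-0.06), did not pass the test.

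On chromosome 7 the order is Apoc2 (chr7:19671584-19673920), Apoc4 (chr7:19678094-19681416), Apoc1 (chr7:19689484-19692658) and Apoe (chr7:19696109-19699166), all on the - strand and within 27.6 kb. Apoc2 encodes the activator of lipoprotein lipase, and its score rose from a range of 2000 to 2818 in the control mice to 7334 to 8520 after Con A and PBS and 8520 to 9848 after Con A and cells. Its log2 fold change after Con A was 1.75 (SE 0.12; limma, Benjamini-Hochberg adjusted p = 5.70e-07). Apoc4 went the other way, from 5925 to 11618 in the control mice to 1909 to 3050 after Con A and PBS, with a log2 fold change of -1.62 (SE 0.21; limma, Benjamini-Hochberg adjusted p = 5.52e-05). With cells Apoc4 scored 4840 to 6952 and was higher than with PBS by a log2 fold change of 1.28 (SE 0.21; limma, Benjamini-Hochberg adjusted p = 0.0174). So in each cluster 1 gene rose beside genes that fell. Apoc2 was also among the 2 genes whose log2 scores were most like those of Apoa4 over the 12 mice (Pearson r = 0.971, a description without a test), the other being Nlrp12 at the same r to 3 digits.

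**Figure D4:**
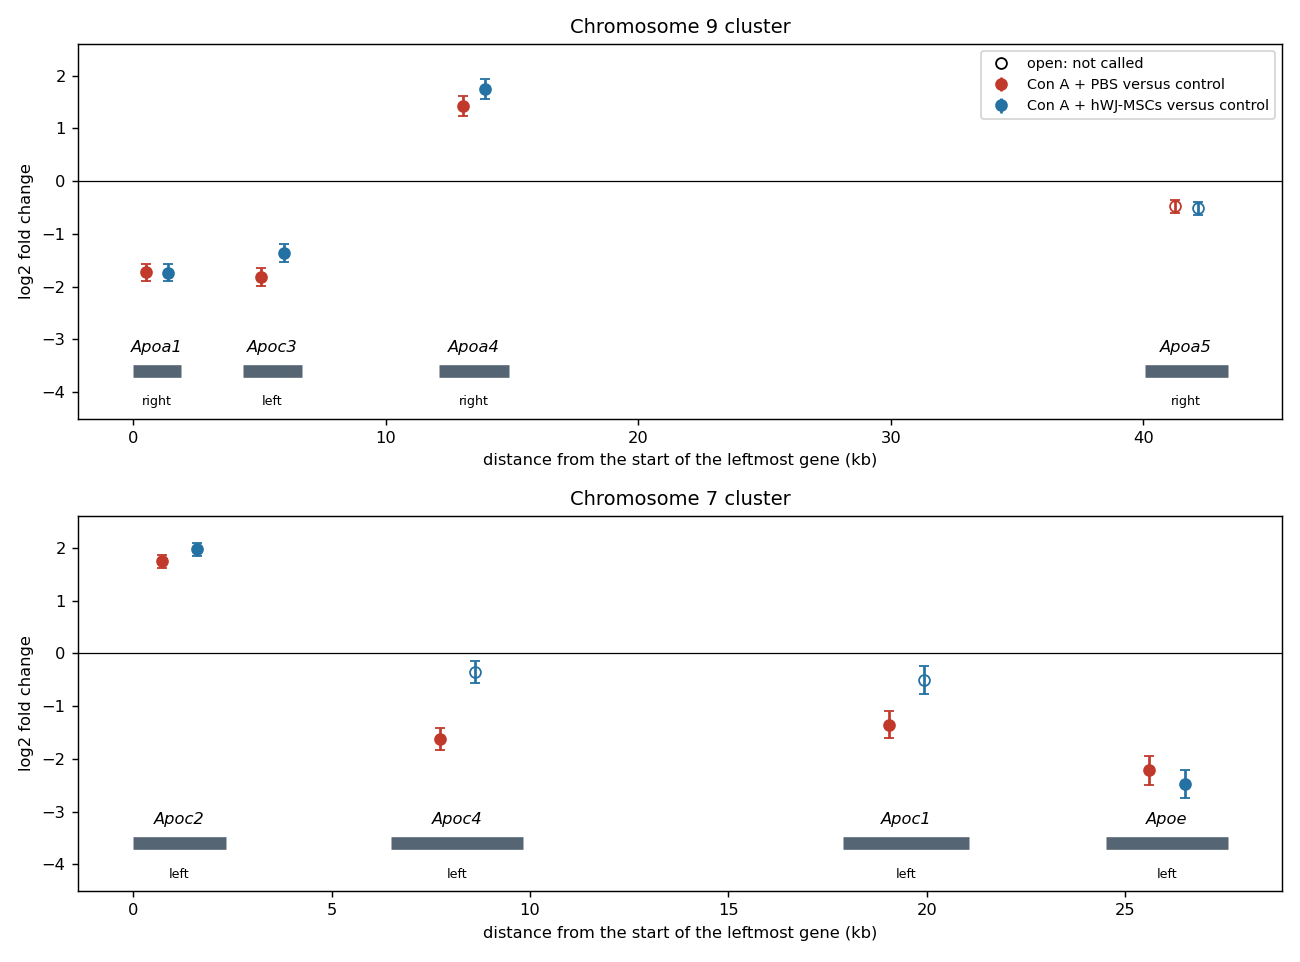
Log2 fold changes against control, with their SE, at the positions of the genes in both clusters, in kb from the start of the leftmost gene, with gene bodies as grey bars and the direction of transcription below them. Apoa4 in the upper panel and Apoc2 in the lower panel lie above 0 in both comparisons, and the other 6 genes lie below 0, with open symbols where the test was not passed.

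The bases just upstream of the deposited starts of Apoa1, Apoa4 and Apoa5 are shown because these 3 genes share 1 strand of the chromosome 9 cluster and had different directions or sizes of change. They are RefSeq sequences of GRCm38.p6, on the + strand and 5′ to 3′, from windows that end at the base before the start that the table lists. Capitals mark matches, on either strand, to a TATA box (TATAAA), to the core letters of many nuclear receptor sites (AGGTCA), to a core of HNF4 sites (CAAAGTNCA, in which the N was set after the windows had been read) or to the cyclic AMP response element (TGACGTCA).
Apoa1, chr9:46228380-46228579: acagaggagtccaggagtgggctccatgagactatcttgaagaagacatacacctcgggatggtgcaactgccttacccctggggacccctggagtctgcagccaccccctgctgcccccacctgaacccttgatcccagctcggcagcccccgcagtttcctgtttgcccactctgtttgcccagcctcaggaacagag
Apoa4, chr9:46240594-46240695: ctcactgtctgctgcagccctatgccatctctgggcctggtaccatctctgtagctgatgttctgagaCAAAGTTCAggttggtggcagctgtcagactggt
Apoa5, chr9:46268383-46268632: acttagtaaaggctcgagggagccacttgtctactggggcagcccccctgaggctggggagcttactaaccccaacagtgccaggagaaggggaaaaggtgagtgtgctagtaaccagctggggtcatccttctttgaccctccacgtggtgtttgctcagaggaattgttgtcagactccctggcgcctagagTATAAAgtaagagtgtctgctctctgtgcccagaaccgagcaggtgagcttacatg
The Apoa4 window held CAAAGTNCA, which 0.426% of the 32851 promoter windows cut to the same 102 bases held. Since the N was set after the windows had been read, this share cannot show whether the match is unusual. The Apoa5 window held TATAAA, as did 12.4% of windows of 250 bases. The Apoa1 window, of 200 bases, held none of these letters. These matches describe the sequence, and binding was not measured. RefSeq places the starts of Apoa1 and Apoa4 at bases 46228630 and 46240844, both downstream of the deposited starts. Other promoter bases than these may therefore count for Apoa1 and Apoa4. For Apoa5 the RefSeq and deposited starts are the same, so the windows do not cover like regions. Of the 10 members, 8 had a promoter entry.

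Further genes of lipoprotein metabolism are given by list. Each count after Con A and PBS is to be read beside the shares over all genes, 19.5% upward and 19.2% downward. With cells against PBS these shares were 4.2% and 4.38%, and with cells against control 13.6% and 13.1%. Among 16 other apolipoproteins and HDL-borne proteins in the table, 8 rose and 3 fell after Con A and PBS, with a median log2 fold change of 0.78 against 0.05 over all genes. The list had held 23 genes, of which 11 rose and 4 fell, with a median log2 fold change of 0.49. From it, 7 genes with a similar symbol (Apobec1, Apobec3, Apobr, Apold1, Apoo, Apool and Apoa1bp) were left out after the values were seen. The serum amyloid A genes led, with Saa3 at a log2 fold change of 10.09, Saa2 at 7.22 and Saa1 at 5.83, followed by Apol10b at 4.29. Saa3 scored 35 to 58 in the control mice and 20871 to 72724 after Con A and PBS. Pon1, which encodes the HDL enzyme paraoxonase 1, fell by 1.95. With cells against PBS, Apoc4 and Apon (0.92) were higher, while the log2 fold changes of Saa3 (-0.12), Saa2 (0.56) and Saa1 (0.43) did not pass.

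The list of particle assembly and secretion had 5 of 34 genes that rose and 14 that fell after Con A and PBS. The triglyceride lipase genes Pnpla3 (log2 fold change -5.13), Ces1g (-3.35) and Ces1d (-3.20) fell most. Plin2, which encodes a coat protein of lipid droplets, rose (2.76), and so did Mttp (0.81), whose product loads lipid onto ApoB. With cells against PBS, Plin2 was lower (-1.38), and Aadac (1.01), Smlr1 (0.80), Tango2 (0.69) and Cideb (0.68) were higher, which makes 4 genes up and 1 down.

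Among 15 lipases and their regulators, 3 rose and 6 fell after Con A and PBS. Angptl6 (log2 fold change -4.16), Gpihbp1 (-2.98), which encodes the protein that holds lipoprotein lipase on the capillary wall, and Lipc (-1.77), which encodes hepatic lipase, were among those that fell. Angptl4, which encodes an inhibitor of lipoprotein lipase, rose (1.61). Of these 15 genes, 5 were higher with cells than with PBS. Among them were Gm6484, the symbol in the table for Angptl8 (1.88), Lpl (1.26), Angptl6 (1.05) and Gpihbp1 (0.97). The scores of Lpl and Gpihbp1 were low, with a highest value over all mice of 614 and 282. Angptl6 was also low, at 194 to 348 in the control mice, 10 to 18 after Con A and PBS and 22 to 34 with cells.

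In the list of receptors and uptake, 3 of 26 genes rose and 6 fell after Con A. Lrp1 (log2 fold change 0.10) and Scarb1 (0.12), which encode an ApoE receptor and the HDL receptor SR-BI, did not pass. Olr1, a scavenger receptor gene, rose from scores of 0 to 54 to scores of 196 to 238, and Nceh1 (1.30) rose while Mylip (-1.60) and Lipa (-1.08) fell. Vldlr was lower with cells than with PBS (-1.84), at scores of 25 to 64 against 62 to 462. Sdc1 was also lower with cells (-0.62) and Stab2 higher (0.59).

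Of 15 genes of HDL maturation and cholesterol efflux, 2 rose and 8 fell after Con A and PBS. Pltp, whose product moves phospholipid into HDL, fell (log2 fold change -2.33), as did Abca8a (-3.39) and Abca8b (-1.99). Abca1, the transporter that loads lipid onto ApoA-I, rose (1.77) and was the gene of the list that was lower with cells than with PBS (-1.48).

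Of 36 regulators of apolipoprotein genes, 3 rose and 11 fell after Con A and PBS. Nr0b2 (log2 fold change -2.59), Srebf1 (-2.42) and Mlxipl (-2.09), which encode a bile acid-induced repressor and regulators of lipogenesis, fell most, followed by Esr1 (-1.38). Creb3l3, which encodes the liver factor CREBH, known as an activator of lipid genes that include Apoa4, Apoa5 and Apoc2, rose from scores of 1946 to 3397 to scores of 5130 to 5904 (0.97; limma, Benjamini-Hochberg adjusted p = 3.19e-04). Hnf4a, a general regulator of hepatocyte genes, did not pass (0.23). With cells against PBS, Nr1d2 (-1.39) and Cebpb (-1.23) were lower and Nr2f2 (0.70) was higher.

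With cells against control, which shares both groups with the comparisons above, 10 of the 16 other apolipoproteins and HDL-borne proteins were higher and 1 lower, and the counts were 4 and 6 of the 34 assembly genes, 2 and 4 of the 26 receptor genes, 2 and 5 of the 15 lipase genes, 1 and 7 of the 15 HDL genes and 2 and 8 of the 36 regulators. Apoc2 (log2 fold change 1.97), Creb3l3 (0.81) and Lcat (0.75), whose product esterifies HDL cholesterol, were among the genes that were higher. Pnpla3 (-5.65), Nr1d1 (-2.73), Srebf1 (-2.35) and Lipc (-1.89) were among those that were lower.

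**Figure D5:**
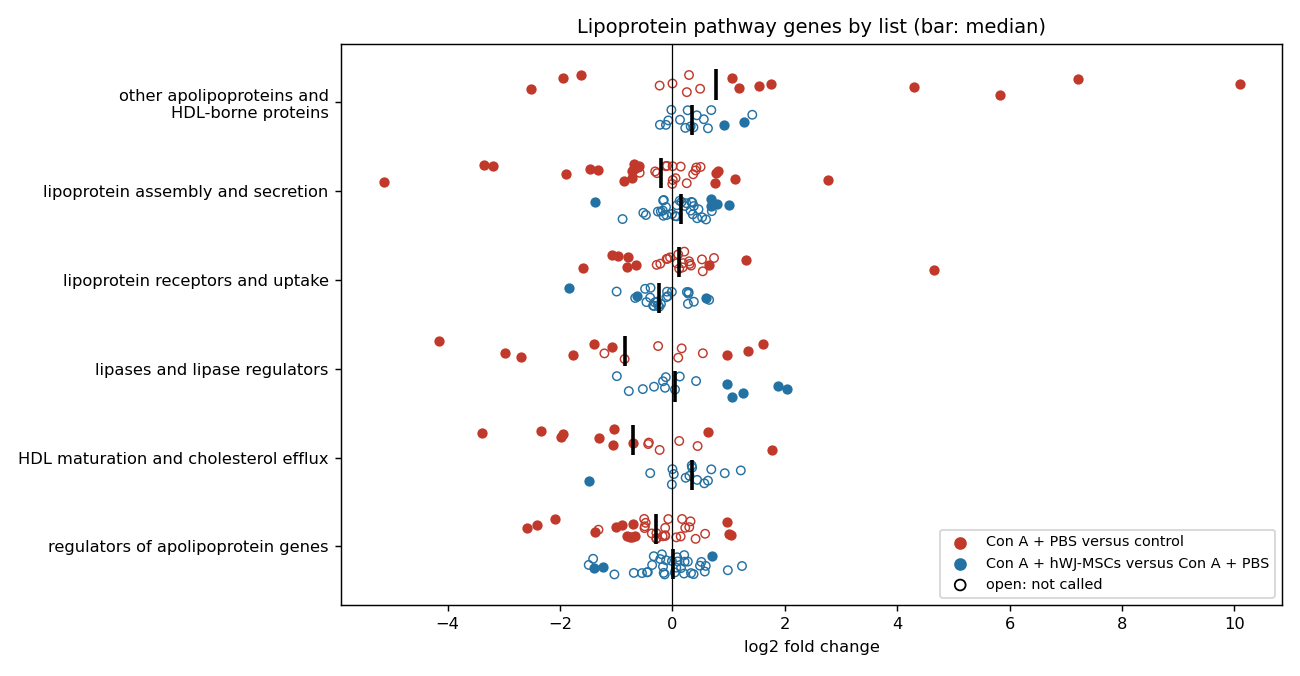
Log2 fold changes of each gene in 6 lists of lipoprotein genes, for Con A + PBS against control in red and Con A + hWJ-MSCs against Con A + PBS in blue, with the list median as a black bar and open symbols where the test was not passed. The members themselves and the 7 genes with a similar symbol that were left out of the first list are not drawn. The serum amyloid A genes are the 3 points furthest to the right, between 5.83 and 10.09.

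Other secreted hepatocyte proteins moved in both directions. Of 36, 8 rose after Con A and PBS and 14 fell, with Orm1 (log2 fold change 4.16) and Hp (2.81) the largest rises and Serpina1c (-2.84) and Rbp4 (-2.27) the largest falls. With cells against PBS, Hpx (1.21) and Azgp1 (1.06) were higher and Trf (-1.21) was lower, where Hpx went from 147377 to 341028 and Trf from 341028 to 147377 in every mouse, an exchange of the first and second steps. In the 40 genes that lie near the members on their chromosomes, 7 rose and 5 fell after Con A and PBS. Over all genes 19.5% rose and 19.2% fell. Adamts4 (4.45), Relb (1.71) and Tomm40l (1.66), like Apoc2, were among those that rose. The scores of Adamts4 were low, at 0 to 9 in the control mice and 46 to 86 after Con A and PBS. With cells against PBS, Nr1i3 (1.35) and Apoc4 were higher and Relb was lower.

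The scores most like those of each member over the 12 mice are given by Pearson r of log2 scores, as a description. For Apoa1 they were Colec10 (0.985) and Serpina1b (0.982), for Apoa2 they included Sdhb (0.978), and for Apoc3 C8g (0.991) and Gchfr (0.988). Apoe was most like Serpina6 (0.988) and Lsamp (0.980), Apoh like Gstz1 (0.964) and Acsm1 (0.964), and Apoc1 like BC017158 (0.976) and Gm4117 (0.970). The points of each r share the same 3 groups of 4 mice.

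Marker genes of cell types moved with the same groups, and their part in the apolipoprotein scores was not tested. The summed score of 14 hepatocyte markers ranged from 1180768 to 1484785 in the control mice, 1027088 to 1069337 after Con A and PBS and 844511 to 917465 after Con A and cells, and 7 of the 14 fell and 1 rose after Con A and PBS. Without Trf, which moved by 1 step at the top, the sums were 839740 to 1143757, 686060 to 728309 and 697134 to 770088, so that the 2 groups given Con A overlapped. These sums still hold Alb, which was at 341028 in all 12 mice. They also hold Ttr, at 341028 in control mouse 1 and 72623 in control mice 2 to 4. Of 15 Kupffer cell and macrophage markers, 13 fell and 2 rose, with summed scores of 9544 to 15214, 5377 to 14291 and 6819 to 9979 in the same order of groups. Of 14 monocyte and neutrophil markers, 12 rose and 1 fell, with sums of 1289 to 1676, 3015 to 4189 and 2792 to 4824. Of 11 sinusoidal endothelial markers, 8 fell and 1 rose, with sums of 4274 to 6268, 1825 to 2784 and 2210 to 3188. All 6 lymphocyte markers in the table, of 17 listed, rose, 3 of 10 stellate cell markers fell, and 1 of 3 cholangiocyte markers rose. Of 9 markers of intestinal epithelium, where Apoa4 is also made, only Fabp2 was in the table. No marker in the table was at 0 in all mice.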

How the data were processed

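The authors deposited, per gene and mouse, a whole-number score already normalized between mice. Per the labels, libraries were poly-A selected (150 bp paired ends) and the submitters' processing notes name Bowtie2 2.2.1, RSEM 1.2.18 and mm10. The study's methods name DESeq2, and the normalization is not given in the sources used here. Each gene reached a score of 64 in at least 2 mice, and the totals differed by 0.0425% of their median. Depth is unknown, so no counting error is given. Count tests, planned only for raw counts, were not run because the table holds scores.

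log2(score + 1) was fitted with limma 3.58.1 (R 4.3.3; lmFit, eBayes with a trend) over all 12 mice and 11289 genes, with 3 contrasts, no covariates and Benjamini-Hochberg adjustment. The code was tested on simulated data. Genes whose 4 scores are equal in each group have a variance of 0, which limma offsets. Exact permutation tests compared means of log2(score + 1), two-sided. Replicates are different mice. Steps and ranges were computed in Python 3.11.15 with numpy 2.4.6 and pandas 2.3.3, and figures were drawn with matplotlib 3.10.9. Transcript lengths came from GENCODE M21, which held 11168 of the listed transcripts.

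Members and lists were chosen with earlier results of these data known. Named were all members, up to 4 genes per list and comparison with the largest change among those that passed the test (and any of a list of up to 5 that passed), the 2 genes most like each member that passed, and the flanking genes. Other genes, such as Mttp, Angptl4, Lrp1, Scarb1, Creb3l3, Hnf4a and Lcat, were named after their values were seen, and some genes that the rule names are not reported here. The alternatives tried were another pseudocount, a filter on low scores, eBayes without a trend, the 8 mice of a comparison alone, other centring, other thresholds, leaving out genes at the largest value, a replicate block, and leaving out each mouse.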

Additional observations from a re-analysis of the deposited data

Results flagged for a closer look

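Of 25 groups of 4 mice with more than 1 value among the 10 apolipoproteins, 7 had a mouse far from the other 3 by Dixon's test at the 95% level, which chance does in about 1 of 20 groups. In 5 more groups all 4 mice had the same score. In 6 of the 7 the other mice were tied on 1 step, so that any difference, even of 1 step, is flagged.

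After Con A and PBS, mouse 4 stood apart for Apoe (147628 against 58038 in the other 3) and for Apob (29590 against 72623). In the same mouse the scores of Saa1 (44442 against 147628) and Saa2 (72682 against 341028) were lower than in the others, and that of Lcn2 (341028 against 72682) was higher. In the control group, mouse 1 had an Apoa2 score of 341028 against 147684. After Con A and cells, mouse 2 had a higher score than the other 3 for Apoc3 (20838 against 16300) and Apoe (72682 against 58038), mouse 4 for Apob (72623 against 57938), and mouse 3 for Apom (2898 against 2217 to 2284).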

How the results depend on the processing

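After Con A and PBS, the count of members that passed was 7 or 8 with any 1 mouse left out. No member that passed changed sign under the alternatives run. Apart from the changed thresholds, 610 of 624 fold changes of single members kept their call, 12 lost it, all Apoc1 with cells against PBS, and 2 gained it. Of 90 calls under other thresholds, 4 changed. At a fold limit of 2, Apoh after Con A and Apoc1 with cells against PBS lost theirs, and without a fold limit Apoa5 passed against control both after PBS and after cells. With cells against PBS, the count of members that passed was 0 with eBayes without a trend and with a fold limit of 2. It was also 0 without the genes at the largest value, and 0 to 1 with a mouse left out. By limma at an unadjusted p it was 1. Leaving out the genes at the largest value removes Apoe and Apoa2 and gave 3 members for cells against control, which was 5 to 6 with a mouse left out.

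For all genes with cells against PBS, the count of 969 was 1697 at an unadjusted p, 1485 without a fold limit, 353 at a fold limit of 2, and 7 to 1575 with a mouse left out. It was 7, 1575, 563 and 285 without Con A + PBS mice 1 to 4, and 506, 18 and 7 without Con A + hWJ-MSCs mice 1 to 3, so the background beside the members' count in this comparison is not stable. The count after Con A was 2391 at a fold limit of 2 and 4093 to 4575 with a mouse left out. For cells against control, the count was 4604 without a fold limit, 1539 at a fold limit of 2, and 2654 to 3254 with a mouse left out. An alternative chosen after seeing the data, the log2 rank of a gene within a mouse, gave 2368, 505 and 1501 genes in the 3 comparisons and the same 7, 1 and 5 members by count.

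Mice with the same number are different animals. The correlations of their deviations from the group means ran from -0.118 to 0.375 over the pairs. The highest were those of mice 2 (0.375) and 4 (0.244) with cells against PBS. With the replicate number as a block, 7, 1 and 5 members and 4429, 1297 and 3080 of all genes passed, and no member's call changed. Apoc1, with cells against PBS, had a limma, Benjamini-Hochberg adjusted p of 0.0420 under the block. Count models were not run, since the values are scores.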
